A study of Mus musculus with 16 samples.

Results

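The 10 genes described here encode hormones, granule proteins and 1 hormone-making enzyme of the enteroendocrine cells, and they were taken by symbol from the 46078 genes of a count table of ileum mucosa. They are Chga, Chgb, Gcg, Pyy, Nts, Cck, Sct, Gip, Sst and Tph1. RNA was sequenced from 16 C57Bl/6 mice, 8 Slfn3KO mice and 8 WT mice, with 4 mice labelled male and 4 labelled female in each genotype. The labels give an age of 8 weeks for all mice, while the study's methods give an older age and name the WT mice as littermates. Slfn3KO mice lack Slfn3, a Schlafen family member studied in intestinal epithelial differentiation. Each library is the mucosa of 1 mouse, so every other mucosal cell type is in it as well.

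Enteroendocrine cells are scattered single cells of the gut epithelium. They arise in the crypt from progenitors that express Neurog3, store peptides in dense-core granules with chromogranins, and release them when nutrients reach the lumen. Which hormone a cell makes depends in part on where along the bowel it lies: GIP and CCK are known as hormones of the upper small bowel, and GLP-1, PYY and neurotensin as hormones of the lower small bowel. In RNA of whole mucosa, fewer cells of a type and less RNA per cell cannot be told apart.

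Promoters are shown for the genes whose levels separate most in the results that follow. Gip and Chga were the members that moved most closely with Slc2a2, a glucose transporter gene of the upper small bowel. Gcg moved the other way, and Pyy moved with it least under the main scaling. The sequences are the 250 bases before the RefSeq start site, from build GRCm38.p6, with AGATAA (the GATA motif, searched on both strands) in capitals.
Gip, chr11:96024295-96024544, plus strand: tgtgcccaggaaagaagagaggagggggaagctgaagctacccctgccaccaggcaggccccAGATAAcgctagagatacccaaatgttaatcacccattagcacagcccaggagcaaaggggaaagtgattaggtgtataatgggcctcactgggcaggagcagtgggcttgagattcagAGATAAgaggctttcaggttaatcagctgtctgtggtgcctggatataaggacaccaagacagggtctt
Chga, chr12:102554691-102554940, plus strand: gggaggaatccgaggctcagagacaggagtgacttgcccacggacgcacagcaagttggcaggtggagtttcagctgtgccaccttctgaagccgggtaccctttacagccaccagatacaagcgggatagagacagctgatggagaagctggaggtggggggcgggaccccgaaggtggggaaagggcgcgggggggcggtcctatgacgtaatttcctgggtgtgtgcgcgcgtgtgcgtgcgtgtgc
Gcg, chr2:62483654-62483903, minus strand: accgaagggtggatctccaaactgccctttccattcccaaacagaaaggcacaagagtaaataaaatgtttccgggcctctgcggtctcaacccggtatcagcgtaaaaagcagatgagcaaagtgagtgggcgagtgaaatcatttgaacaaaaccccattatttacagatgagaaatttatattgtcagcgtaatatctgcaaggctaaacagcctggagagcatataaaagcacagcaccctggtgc
Pyy, first start site, chr11:102107833-102108082, minus strand: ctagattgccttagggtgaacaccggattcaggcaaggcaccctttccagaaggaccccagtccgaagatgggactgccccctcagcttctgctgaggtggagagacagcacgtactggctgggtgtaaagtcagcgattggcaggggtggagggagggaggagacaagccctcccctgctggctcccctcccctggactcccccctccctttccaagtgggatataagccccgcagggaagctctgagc
The Gip window held 2 copies of AGATAA, which began at -188 and -69 from the start site. The windows of Nts and Cck held 1 copy each, at -131 and -189. No copy was found in the windows of Chga, Chgb, Gcg, Pyy, Sct, Sst or Tph1. Of 32851 windows of the same length, 9.99% held AGATAA. The cyclic AMP response element TGACGTCA occurred once in Chgb, at -72, and once in Sst, at -48, and in 1.55% of all windows. No match of these motifs overlapped another, and a match is a string of letters, not a measured binding site.

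Libraries held between 20823279 and 30813117 counts, so 3 counts, the floor used here, lay between 0.0974 and 0.144 CPM by the raw library total. The CPM levels given for the genes use the total times a TMM factor, which corrects for differences in library composition. Slfn3 had at most 2 counts in each Slfn3KO library, but also only 0 to 19 counts in the WT libraries, so it is a weak check of the genotype label. The sex labels were contradicted in 4 WT libraries. Xist, transcribed from the inactive X chromosome, had 3 and 0 counts in female WT 3 and 4, and 12851 and 9652 counts in male WT 3 and 4. Ddx3y, a Y-linked gene, had 1014 and 1134 counts in female WT 3 and 4, and 0 and 1 in male WT 3 and 4. The labels were kept, and the comparisons of genotypes and the relation to Slc2a2 are also given without these libraries.

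The summed level of 11 epithelial markers lay between 18115 and 31851 CPM, so all libraries held epithelium. Slc2a2 ranged from 0.516 to 194 CPM, and all 4 female Slfn3KO libraries were at or under 4.31 CPM. Of 10 B cell follicle markers, the sum reached 868 CPM in WT and 130 CPM in Slfn3KO libraries, with the highest sums in male WT 3, female WT 4 and female WT 3. Of 10 pancreatic markers, 8 had at most 3 counts in every library, and Ins1, Ins2 and Amy2b had 0.

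All 10 genes passed the filter on low counts, and each had at least 56 counts in every library. Their summed level lay between 238 CPM in male WT 3 and 440 CPM in male Slfn3KO 4. Between genes, levels were compared per kilobase of exon. Sct, which encodes secretin, and Nts, which encodes neurotensin, had the highest medians, 85.3 and 82.2 CPM per kilobase. Pyy followed with 47.0. Sst with 27.1, Chga with 25.3, Gcg with 24.7, Gip with 20.3 and Chgb with 17.7 CPM per kilobase lay close together. Cck with 7.50 and Tph1 with 1.14 CPM per kilobase were lowest.

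Sct exceeded Nts in 14 of 16 mice (permutation test of the mean log2 difference with signs flipped per mouse, two-sided p = 0.0102). Nts exceeded Pyy, and Pyy exceeded Sst, in all 16 mice. From Sst to Chgb the neighbours did not differ beyond their spread between mice. Sst was above Chga in 9 of 16 mice (permutation p = 0.689), Chga above Gcg in 8 of 16 (permutation p = 0.993), Gcg above Gip in 10 of 16 (permutation p = 0.227) and Gip above Chgb in 9 of 16 (permutation p = 0.777). Chgb exceeded Cck, and Cck exceeded Tph1, in all 16 mice. These 9 comparisons of neighbours gave a permutation p = 3.05e-05, the smallest that 16 mice allow, wherever all mice agreed.

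**Figure D1:**
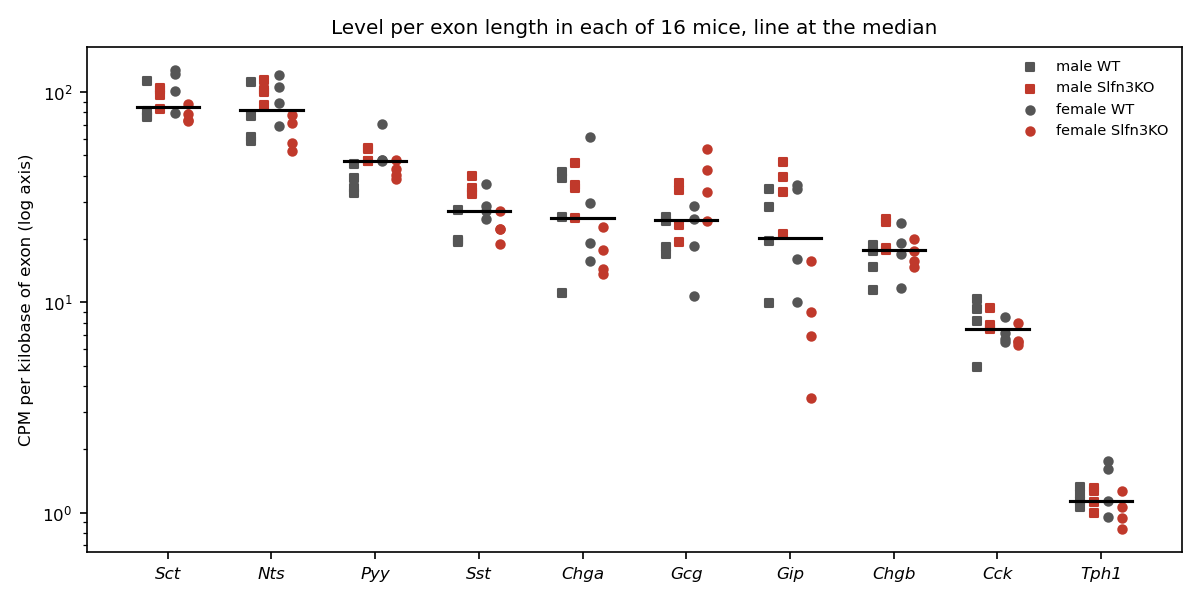
CPM per kilobase of exon (log axis) of each gene in each of 16 mice, ordered by the median (black line), with WT in grey, Slfn3KO in red, squares for mice labelled male and circles for mice labelled female. Sct and Nts lie highest, the 5 genes from Sst to Chgb overlap, and Gip spreads widest, from 3.5 to 46.2.

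Chga and Chgb encode chromogranin A and B, the matrix proteins of dense-core granules. Chga lies at chr12:102554969-102565027 on the plus strand (mm10) and Chgb at chr2:132781278-132795079 on the plus strand. In the libraries labelled male WT, Chga stood at 78.7, 73.3, 20.8 and 47.7 CPM, and in male Slfn3KO at 47.6, 65.8, 68.2 and 86.3 CPM. In female WT it stood at 115, 55.6, 36.1 and 29.7 CPM, and in female Slfn3KO at 25.6, 33.3, 43.2 and 27.0 CPM. The groups overlapped in both labelled sexes, and male WT 3 was the lowest of all 16. Chga therefore varied 5.54-fold over the mice, whereas Chgb varied 2.18-fold, from 31.3 CPM in male WT 3 to 68.4 CPM in male Slfn3KO 3. By group, Chgb was 42.7 ± 8.83 CPM in male WT, 58.2 ± 10.5 in male Slfn3KO, 49.1 ± 13.8 in female WT and 46.7 ± 6.49 in female Slfn3KO (mean ± SD, n = 4 each).

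Gcg encodes proglucagon, the precursor of GLP-1 and GLP-2 in intestinal L cells, and lies at chr2:62474530-62483650 on the minus strand. In male WT, Gcg stood at 37.8, 36.3, 27.3 and 25.3 CPM, and in male Slfn3KO at 55.4, 34.8, 51.2 and 29.1 CPM. In female WT it stood at 16.1, 43.0, 37.4 and 27.8 CPM, and in female Slfn3KO at 80.0, 64.0, 36.4 and 50.3 CPM. The groups overlapped in both labelled sexes, with 3 of 4 female Slfn3KO libraries above every female WT library. Over both sexes the mean was 50.1 ± 16.8 CPM in Slfn3KO and 31.4 ± 8.77 CPM in WT (SD, n = 8 each).

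Pyy encodes peptide YY, an L cell hormone that slows gastric emptying and reduces food intake, and lies at chr11:102106676-102107832 on the minus strand. In male WT, Pyy stood at 24.8, 22.01, 20.9 and 28.6 CPM, and in male Slfn3KO at 29.6, 34.2, 29.7 and 33.7 CPM. Every male Slfn3KO library was above every male WT library, by little between 29.6 and 28.6. In female WT it stood at 30.0, 30.0, 29.7 and 44.3 CPM, and in female Slfn3KO at 30.1, 25.3, 24.5 and 27.3 CPM. There the groups overlapped, and female WT 4 stood far above the other libraries of its group. Female WT 3 and 4, which had transcripts of the Y-linked Ddx3y, stood at 29.7 and 44.3 CPM, not below the male Slfn3KO libraries. The separation of Pyy in males thus holds for the labels only.

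Nts encodes neurotensin, a peptide of N cells released after fat, and lies at chr10:102481760-102490418 on the minus strand. In male WT it stood at 71.9, 90.3, 68.9 and 132 CPM, and in male Slfn3KO at 134, 117, 102 and 120 CPM. In female WT it stood at 105, 125, 81.4 and 142 CPM, and in female Slfn3KO at 67.0, 61.8, 83.8 and 91.1 CPM. The groups overlapped in both labelled sexes through male WT 4 and female WT 3.

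Sct, at chr7:141278331-141279133 on the minus strand, encodes secretin, which stimulates bicarbonate secretion by the pancreas. Sct was 46.5 ± 9.46 CPM in male WT and 51.6 ± 5.10 in male Slfn3KO, with male WT 4 at 60.5 above all male Slfn3KO libraries (SD, n = 4 each). In females it was 57.3 ± 11.5 CPM in WT and 41.7 ± 3.54 in Slfn3KO, with female WT 3 at 42.6 inside the Slfn3KO range (SD, n = 4 each). Among all 10 genes Sct varied least over the 16 mice, 1.75-fold from 38.9 to 68.0 CPM.

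Gip encodes the glucose-dependent insulinotropic polypeptide of K cells, an incretin, and lies at chr11:96024545-96030831 on the plus strand. In male WT, Gip stood at 13.4, 23.7, 6.80 and 19.5 CPM, and in male Slfn3KO at 23.1, 27.2, 14.5 and 31.8 CPM. In female WT it stood at 23.8, 24.9, 6.92 and 11.1 CPM, and in female Slfn3KO at 2.41, 6.17, 10.8 and 4.73 CPM. Gip varied 13.2-fold over the mice, more than any of the other members, and the genotypes overlapped in both labelled sexes. The lowest library, female Slfn3KO 1, still held 56 counts.

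Sst encodes somatostatin, the D cell peptide that restrains the release of other hormones, and lies at chr16:23889581-23890844 on the minus strand. In male WT, Sst stood at 11.7, 11.9, 11.6 and 16.4 CPM, and in male Slfn3KO at 20.1, 21.01, 19.5 and 23.9 CPM. Every male Slfn3KO library was above every male WT library. In female WT it stood at 21.9, 14.97, 17.1 and 16.2 CPM, and in female Slfn3KO at 13.4, 16.3, 13.3 and 11.4 CPM. There the order was the other way, and the groups overlapped through female Slfn3KO 2. Female WT 3 and 4, with Ddx3y transcripts, stood at 17.1 and 16.2 CPM, below every male Slfn3KO library.

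Cck encodes cholecystokinin, which contracts the gall bladder, and lies at chr9:121489825-121495689 on the minus strand. It was low in this tissue, from 3.36 CPM in male WT 3 to 7.14 CPM in male WT 1, and the Slfn3KO mean of 5.09 ± 0.713 CPM lay within 1 SD of the WT mean of 5.27 ± 1.20 CPM (n = 8 each). Tph1 encodes the tryptophan hydroxylase that makes serotonin in enterochromaffin cells, and lies at chr7:46647130-46672537 on the minus strand. It ranged from 3.07 CPM in female Slfn3KO 2 to 6.47 CPM in female WT 2, with 4.05 ± 0.639 CPM in Slfn3KO and 4.70 ± 1.02 CPM in WT (SD, n = 8 each).

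**Figure D2:**
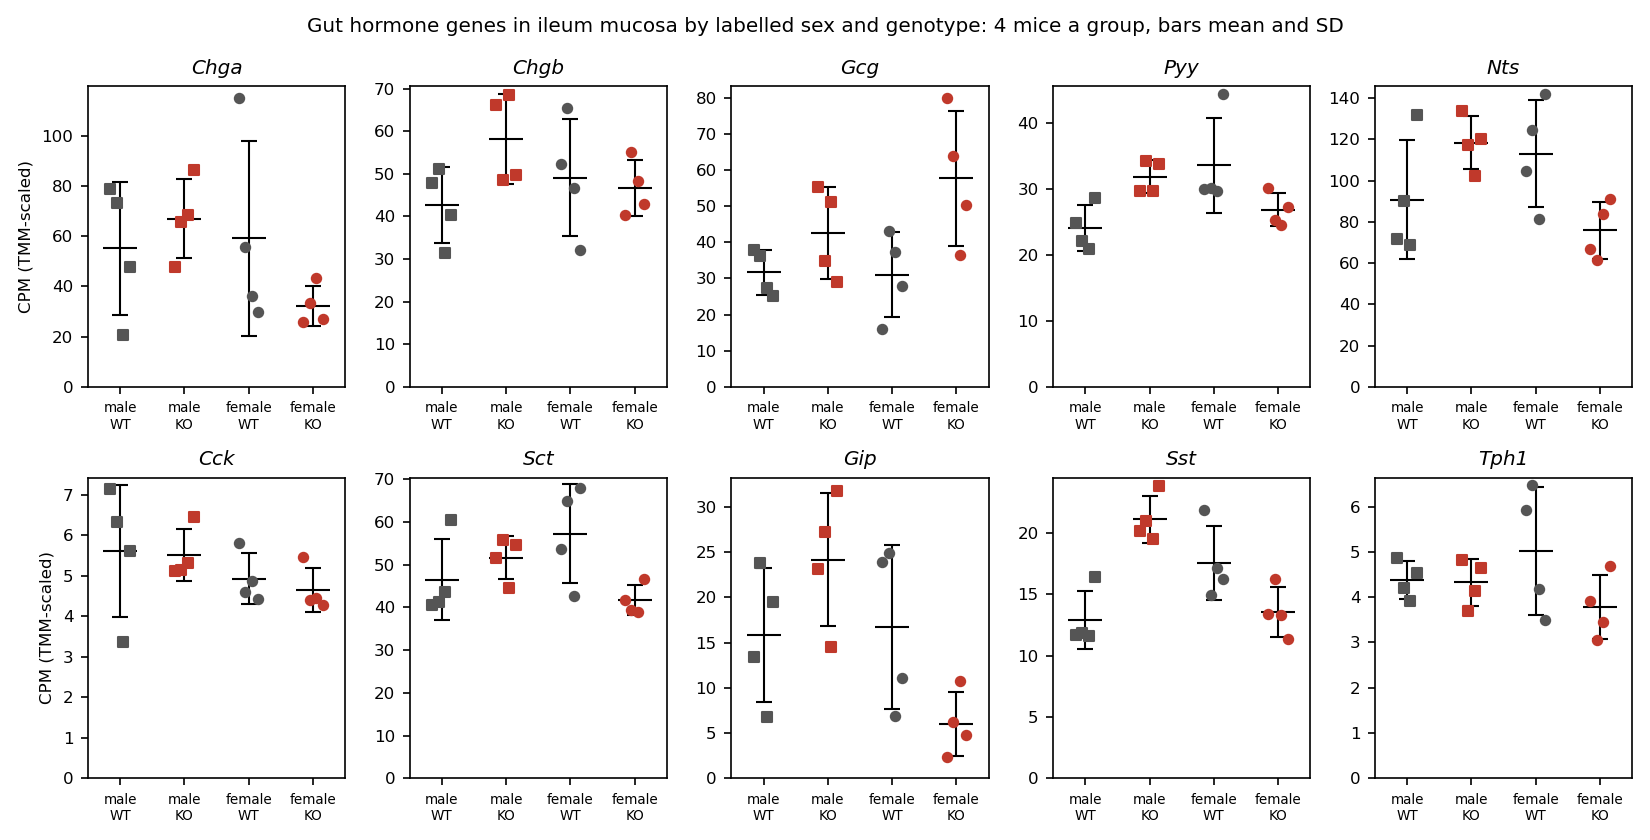
CPM of each gene in each mouse, by labelled sex and genotype, with WT in grey, Slfn3KO in red, black ticks at the mean and bars of 1 SD (n = 4 each, axes from 0). Sst and Pyy of the mice labelled male do not overlap between genotypes. In mice labelled female, Gip reaches at most 10.8 in Slfn3KO while 3 of 4 WT libraries lie above that.

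The first comparison asked whether the genotypes differed over all 16 mice, with labelled sex as a covariate. Proglucagon transcripts were 1.58-fold higher in Slfn3KO than in WT mice, the largest fitted difference among the 10 genes, and this did not pass after adjustment over all genes. The log2 fold change of Gcg was 0.66 ± 0.22 (SE), with an edgeR adjusted p of 0.327. At an adjusted p under 0.05 and 1.5-fold, 0 of 10 genes were called, as against 0% of all 14822 genes tested. At an unadjusted p under 0.05 and 1.5-fold, Gcg alone was called, as against 6.64% of all genes tested. The other fitted log2 fold changes lay between -0.41 for Gip and 0.19 for Chgb, and 4 of 10 were above 0. The groups of 8 overlapped for every member, as they did for all but 0.027% of genes.

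Gcg stood higher in Slfn3KO whichever mouse was left out, with log2 fold changes between 0.54 and 0.74. It was 0.56 (edgeR adjusted p = 0.761) without WT 3 and 4 of both labelled sexes, and 0.62 (edgeR adjusted p = 0.614) without the 3 WT libraries richest in follicle markers. With Slc2a2 as a covariate it was 0.49 (edgeR adjusted p = 0.317). Its unadjusted p was under 0.05 under each of these settings other than without WT 3 and 4. Chga and Gip were fitted lower still without WT 3 and 4, where Chga had a log2 fold change of -0.83 (edgeR adjusted p = 0.761) in place of -0.29, and Gip of -0.96 (edgeR adjusted p = 0.761) in place of -0.41. With Slc2a2 as a covariate, these became 0.21 for Chga (edgeR adjusted p = 0.681) and 0.19 for Gip (edgeR adjusted p = 0.745).

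Among males alone, 8 of 10 genes were fitted higher in Slfn3KO, led by Sst and followed by Gip, Chgb and Gcg. Of all genes tested, 7000 of 14124 were fitted higher. Sst was 1.65-fold higher, with a log2 fold change of 0.72 ± 0.13 (SE), an edgeR adjusted p of 0.925. Pyy was 1.33-fold higher (log2 fold change 0.41 ± 0.11, edgeR adjusted p = 0.925), and Chgb 1.37-fold higher (0.45 ± 0.18, edgeR adjusted p = 0.925). At the adjusted threshold 0 of 10 were called, as against 0% of 14124 genes, and at the unadjusted threshold Sst alone, as against 1.93%. Sst and Pyy were the members without overlap between the groups, as against 2.42% of genes. DESeq2 called Sst at an adjusted p of 0.00489, so for this gene the call depended on the test.

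The labels of male WT 3 and 4 were contradicted by their sex-linked transcripts, and without both the male Sst difference was 0.85 (edgeR adjusted p = 0.217) and that of Pyy 0.45 (edgeR adjusted p = 0.641). The difference in Chgb was then 0.24 (edgeR adjusted p = 0.781), with an unadjusted edgeR p of 0.197 in place of 0.0317. None of these genes passed in edgeR with adjustment, with or without these libraries. Over the mice left out in turn, the Sst difference lay between 0.66 and 0.84 and the Pyy difference between 0.36 and 0.49. With Slc2a2 as a covariate, Sst kept 0.71 (edgeR adjusted p = 0.546) and Gip had 0.64 (edgeR adjusted p = 0.926), as against 0.62 (edgeR adjusted p = 0.925) without it. Deviations of same-numbered male libraries had positive r, as did those of some libraries of unlike number. Gip was higher in Slfn3KO in 4 of 4 same-numbered pairs. With the library number as a block Gip had a log2 fold change of 0.70 (edgeR adjusted p = 0.743). At the unadjusted threshold with 1.5-fold Gip was then called beside Sst. The share of all genes called so with the block was not counted, so no result about the members is drawn.

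Among females alone the direction was opposite for most genes: 9 of 10 were fitted lower in Slfn3KO, with Gcg the exception. Of all genes tested, 7185 of 14064 were fitted lower. Gip was 2.77-fold lower (log2 fold change -1.47 ± 0.53, edgeR adjusted p = 0.263). Gcg was 1.84-fold higher (0.88 ± 0.32, edgeR adjusted p = 0.266). Nts (-0.58 ± 0.20, edgeR adjusted p = 0.258), Sct (-0.46 ± 0.16, edgeR adjusted p = 0.250) and Sst (-0.38 ± 0.15, edgeR adjusted p = 0.277) were also lower at an unadjusted p under 0.05, and Chga (-0.87 ± 0.41, edgeR adjusted p = 0.300) was not. By this p without a fold threshold, 5 of 10 members stood out, as against 2409 of 14064 genes. At the adjusted threshold 0 of 10 were called, as against 0% of 14064 genes. At the unadjusted threshold with 1.5-fold, Gip and Gcg were called, as against 9.71%. None of the 10 was without overlap between the groups, as against 7.77% of genes. Scaling to epithelial markers shifted the female contrast by 0.197 on the log2 scale between the scaling factors, while single genes moved by unequal amounts. Then 7 of 10 were fitted lower, Chgb had 0.13 and Gip and Gcg alone had an unadjusted p under 0.05. The share of all genes under that scaling was not counted.

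All 4 female Slfn3KO libraries had low Slc2a2, whereas female WT stood at 150, 62.6, 1.12 and 2.45 CPM. Genotype and the position along the bowel that Slc2a2 marks cannot be told apart in these females. With Slc2a2 as a covariate, the female difference was -0.39 (edgeR adjusted p = 0.844) for Gip, 0.07 (edgeR adjusted p = 0.968) for Chga and 0.54 (edgeR adjusted p = 0.782) for Gcg. Without female WT 3 and 4, whose sex-linked transcripts go against the label and whose Slc2a2 was as low as in Slfn3KO, it was -2.02 (edgeR adjusted p = 0.125) for Gip and -1.41 (edgeR adjusted p = 0.117) for Chga.

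**Figure D3:**
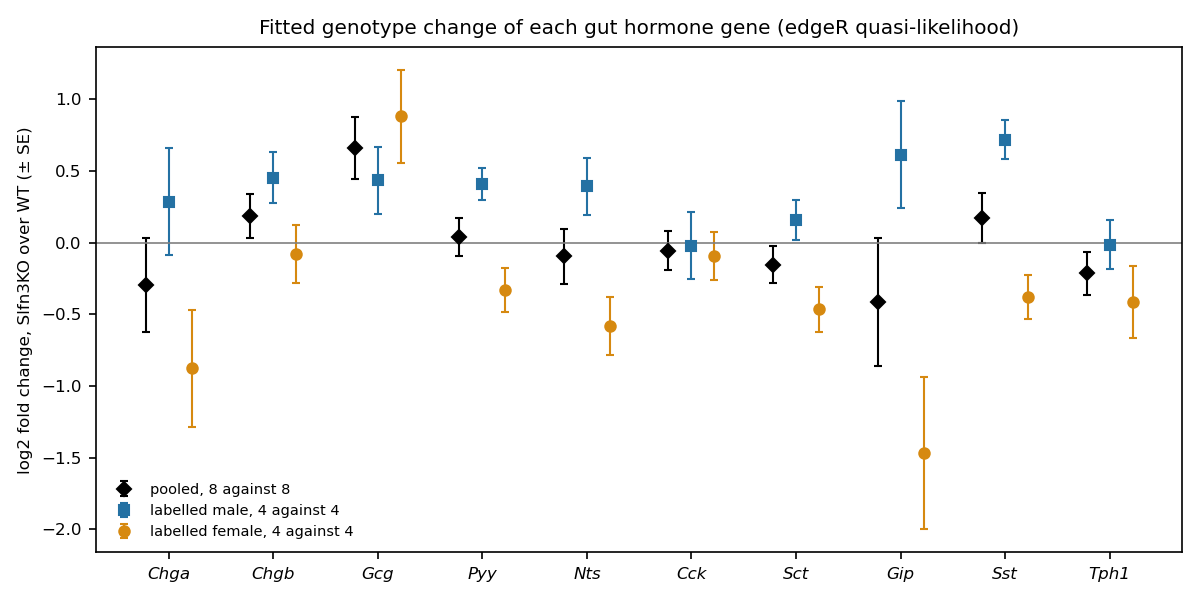
Fitted log2 fold change of Slfn3KO over WT for each gene (points) with its standard error (bars), for all mice (black diamonds), mice labelled male (blue squares) and mice labelled female (orange circles). The male and female values lie on opposite sides of 0 for Chga, Chgb, Pyy, Nts, Sct, Gip and Sst, and on the same side for Gcg, Cck and Tph1.

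The difference between the labelled sexes was tested itself, as the interaction of sex and genotype. The female change was below the male change for 9 of 10 genes, as against 7305 of all 14822 genes tested. At an unadjusted p under 0.05 and 1.5-fold, 5 genes, Sst, Pyy, Nts, Gip and Sct, were called, as against 6.38% of 14822 genes. At the adjusted threshold 0 of 10 were called, as against 0% of all genes. The female minus male difference was -1.09 ± 0.21 for Sst (edgeR adjusted p = 0.441), -0.73 ± 0.19 for Pyy (edgeR adjusted p = 0.441), -0.96 ± 0.30 for Nts (edgeR adjusted p = 0.441), -2.07 ± 0.69 for Gip (edgeR adjusted p = 0.441) and -0.61 ± 0.22 for Sct (edgeR adjusted p = 0.441), on the log2 scale with SE.

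These 5 kept an unadjusted p under 0.05 whichever mouse was left out. Scaled to epithelial markers, Sst, Nts and Gip kept it, and Pyy (edgeR adjusted p = 0.656) and Sct (edgeR adjusted p = 0.656) did not. Without WT 3 and 4 of both labelled sexes, 2 WT mice of each labelled sex were left. The differences were then -1.29 for Sst (edgeR adjusted p = 0.0433) and -0.85 for Sct (edgeR adjusted p = 0.0443), and both passed the adjusted threshold. So did 359 genes in all, as against 0 with all mice. The share of all genes passing without WT 3 and 4 was not counted, so no result about the members is drawn. With Slc2a2 as a covariate the differences were -0.95 for Sst (edgeR adjusted p = 0.794), -0.75 for Pyy (edgeR adjusted p = 0.794) and -1.02 for Gip (edgeR adjusted p = 0.794). DESeq2 called Sst at an adjusted p of 0.000819. With 2 WT libraries of each labelled sex whose sex-linked transcripts go against their labels, the interaction compares the labels, not the sexes.

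Position along the bowel was then taken from Slc2a2, which is high in the upper small bowel. Other genes listed for the upper small bowel did not all go with it. Over the 16 mice r was 0.92 for Gata4, 0.93 for Lct, 0.90 for Fabp1 and 0.66 for Slc46a1, but -0.82 for Slc40a1 and -0.79 for Cybrd1. Of the genes listed for the lower small bowel, Slc10a2 had r = -0.71 and Amn 0.88. Slc2a2 spread over 8.35 log2 units with a largest gap of 1.22 between neighbouring mice, so the mice were not split into separate clusters. Gip tracked it most closely: Pearson's r was 0.92 and Spearman's rho 0.91 (permutation p = 1e-05, the smallest that 100000 permutations give, adjusted over all genes 0.000511). Chga followed with r = 0.85 and rho = 0.86 (permutation p = 7e-05, adjusted over all genes 0.00150). Each 2-fold step in Slc2a2 went with a step of 0.33 in log2 CPM of Gip and of 0.20 in that of Chga.

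Gip was lowest in female Slfn3KO 1, which had 0.516 CPM of Slc2a2, and highest in male Slfn3KO 4, which had 194 CPM of Slc2a2. Cck also moved with Slc2a2 (r = 0.62, rho = 0.66, permutation p = 0.0102, adjusted over all genes 0.0365). Tph1 (r = 0.59, permutation p = 0.0164) and Nts (r = 0.58, permutation p = 0.0229) went the same way and Gcg the other way (r = -0.56, rho = -0.58, permutation p = 0.0222), with adjusted p-values of 0.0513, 0.0654 and 0.0640. Sct (r = 0.44), Sst (r = 0.41), Chgb (r = 0.35) and Pyy (r = 0.06) did not pass at an unadjusted p under 0.05. Thus 3 of 10 genes passed with adjustment, as against 31.6% of 14821 genes, and 6 of 10 without adjustment, as against 43.6%, so the share with adjustment is close to that of genes in general.

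**Figure D4:**
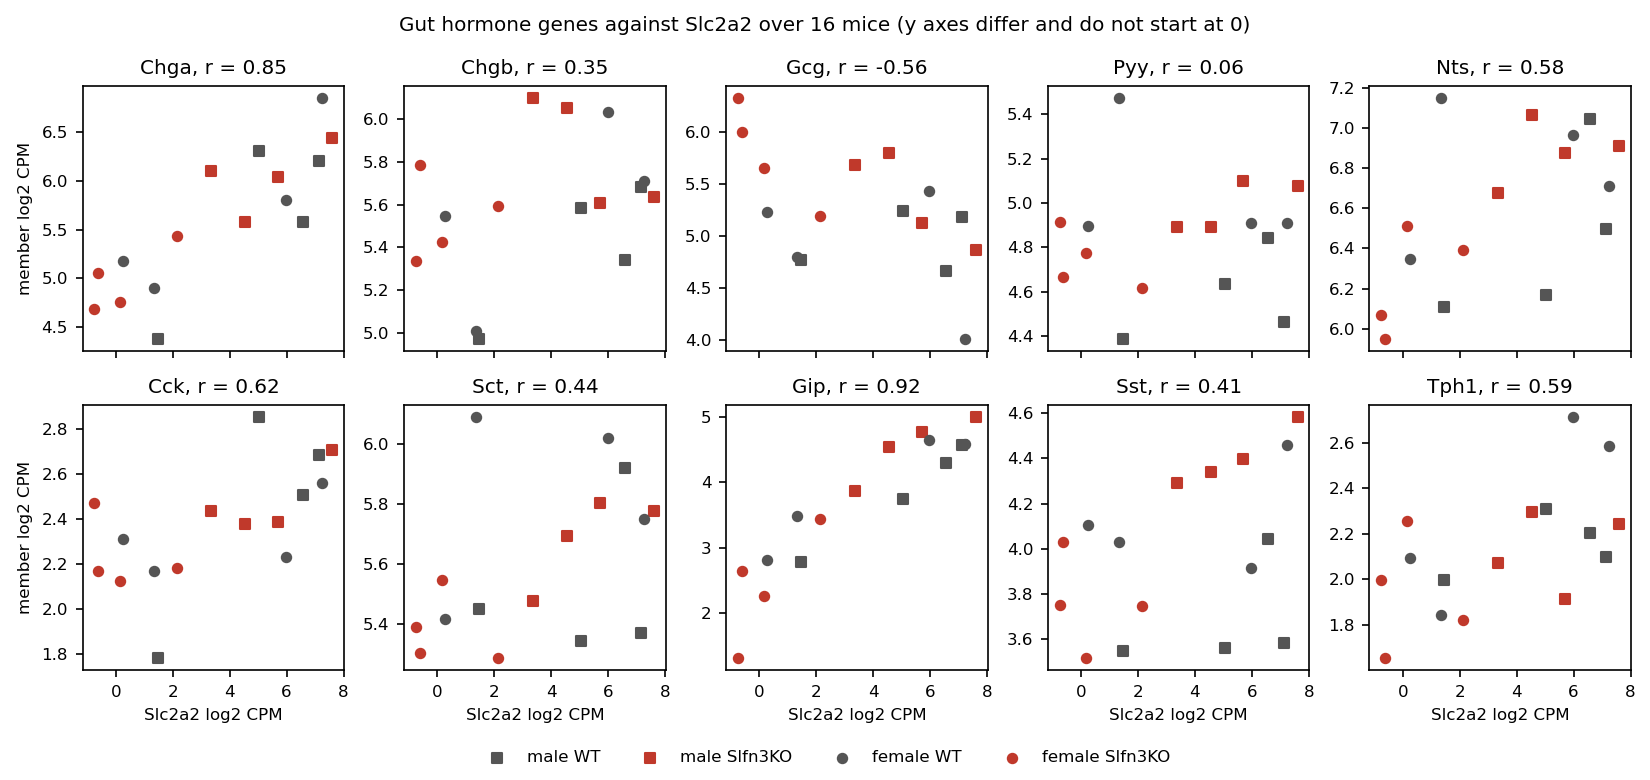
log2 CPM of each gene against log2 CPM of Slc2a2 over 16 mice, with WT in grey, Slfn3KO in red, squares for mice labelled male and circles for mice labelled female. Gip (r = 0.92) and Chga (r = 0.85) climb along the axis in both genotypes, Gcg (r = -0.56) descends, and Pyy (r = 0.06) shows no slope.

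The relation of Gip and Chga kept its size within each genotype. Within WT, r was 0.94 for Gip (exact permutation p = 0.00131) and 0.82 for Chga (exact permutation p = 0.0166), and within Slfn3KO 0.95 for Gip (exact permutation p = 0.000893) and 0.92 for Chga (exact permutation p = 0.00231), with 8 mice each. With adjustment over all genes these p-values were 0.0826 and 0.134 within WT, which missed the threshold, and 0.0235 and 0.0315 within Slfn3KO. As deviations from the means of the 4 groups, r was 0.89 for Gip and 0.82 for Chga. Without the 2 mice farthest from the median of Slc2a2, female Slfn3KO 1 and 2, r was 0.92 for Gip, 0.83 for Chga and 0.71 for Cck, but -0.34 for Gcg. For Gcg r was -0.20 within WT and -0.79 within Slfn3KO. Without WT 3 and 4 of both labelled sexes, r was 0.93 for Gip, 0.91 for Chga and -0.76 for Gcg (permutation p = 0.00228, adjusted over all genes 0.0194). Cck then had r = 0.61 (adjusted over all genes 0.0998), so the 3 members that passed were Gip, Chga and Gcg in place of Gip, Chga and Cck. The Gcg relation thus depended on which mice were included.

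For 4 other members r with Slc2a2 was far apart in size between the genotypes. Within Slfn3KO it was 0.88 for Nts, 0.82 for Sct, 0.85 for Sst and 0.71 for Pyy, and of these Nts passed with adjustment over all genes (exact permutation p = 0.00623, adjusted 0.0453). Within WT it was 0.26 for Nts, 0.11 for Sct, 0.09 for Sst and -0.25 for Pyy. The difference between the genotypes was not tested. The summed epithelial markers themselves moved with Slc2a2 (r = 0.81). Relative to those markers, Gip kept r = 0.88 and Chga 0.76, Gcg reached -0.65 (permutation p = 0.00520, adjusted over all genes 0.0143), and Cck had 0.01 (permutation p = 0.960), so the Cck relation did not hold under that scaling. Pyy, with r = 0.06 under the main scaling, had -0.52 relative to those markers (permutation p = 0.0375, adjusted over all genes 0.0661).

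In the 7 mice with Slc2a2 under 5 CPM, r was 0.79 for Gip (exact permutation p = 0.0268), -0.85 for Gcg (exact permutation p = 0.0191) and 0.19 for Chga (exact permutation p = 0.673). In the 9 mice above it, r was 0.67 for Gip (exact permutation p = 0.04998), -0.75 for Gcg (exact permutation p = 0.0200) and 0.41 for Chga (exact permutation p = 0.280). This split was chosen after the values were seen, and no member passed within it after adjustment over all genes. Chga thus moved with Slc2a2 across the whole range, and its relation was not detectable within either side.

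Ratios of members are given as a description, since they were chosen after the relation of each member to Slc2a2 was seen. They were taken from log2 CPM with a prior count of 2. The ratio of Gip to Gcg ran from 0.0310 to 1.48 over the 16 mice, and that of Chga to Chgb from 0.605 to 2.20. Each ratio is read within a library, so the scaling of libraries drops out of it apart from the prior count.

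Fabp6, an ileal bile acid binding protein gene, is listed for the lower small bowel. Against it, r was -0.32 for Gip, -0.63 for Chga, -0.56 for Cck and 0.36 for Gcg. These signs are opposite to those with Slc2a2, which is the same direction along the bowel. Nts (0.05), Sct (0.18) and Pyy (0.03) had a positive r, as with Slc2a2. No member passed against Fabp6 with adjustment over all genes. Fabp6 had r = -0.45 with Slc2a2 (permutation p = 0.0844), and female WT 2, with 62.6 CPM of Slc2a2, had the highest Fabp6 of all, 15715 CPM. The position genes therefore did not order the mice in 1 way, and Slc2a2 is used here as a measured axis.

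Over the 45 pairs of members, 34 had a positive r, 14 had an unadjusted permutation p under 0.05, and 6 of these passed an adjustment over the pairs, all positive. Nts and Sct moved together most closely (r = 0.87, rho = 0.86, permutation p = 3e-05), within WT with r = 0.94 and within Slfn3KO with 0.86. Chga and Gip (r = 0.80, permutation p = 0.000220) and Chga and Cck (r = 0.77, permutation p = 0.000440) also passed, although Cck and Gip had r = 0.45 (permutation p = 0.0829). Pyy with Sct (r = 0.73, permutation p = 0.000940) and with Nts (r = 0.66, permutation p = 0.00389) passed too, as did Nts with Gip (r = 0.70, permutation p = 0.00266). Gcg and Pyy, often named together as L cell products, had r = -0.11 (permutation p = 0.672), and Gcg had a negative r with 8 of the other 9 members. All members are read from the same libraries, so they share depth, epithelial share and position. The share of gene pairs in general that pass was not counted, so the counts of pairs are not read as a result about the members.

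**Figure D5:**
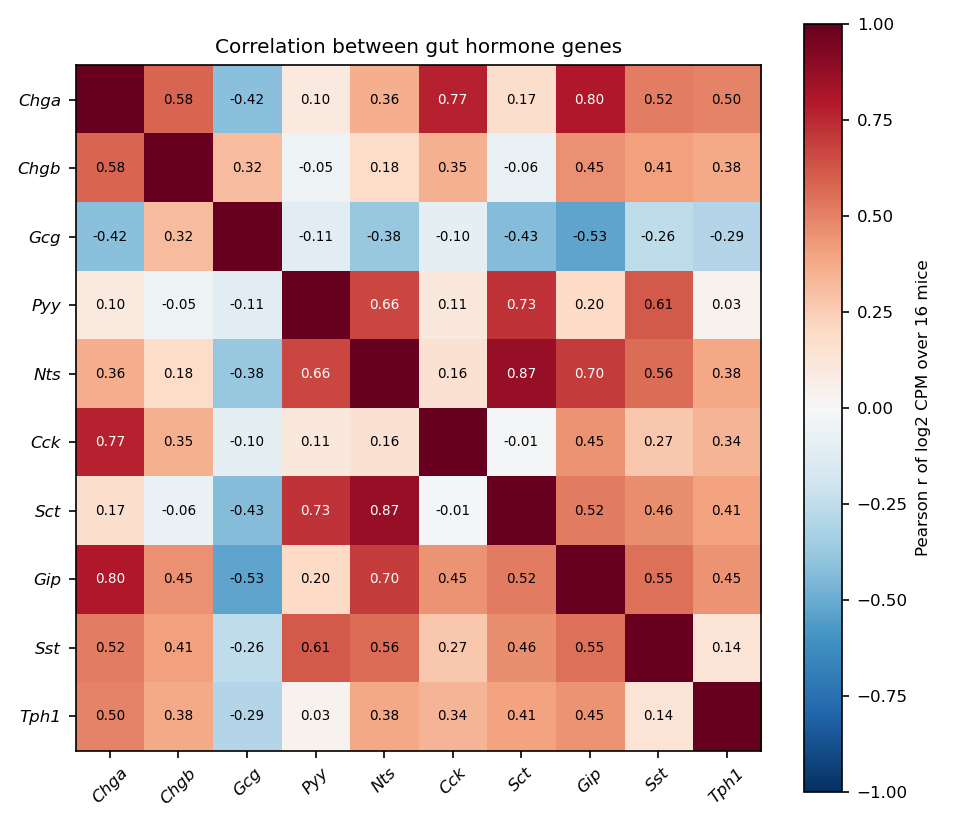
Pearson's r of log2 CPM between each pair of genes over 16 mice (colour from -1 in blue to 1 in red, value in each cell). Nts, Sct and Pyy form one block of high values, Chga is high with Gip (0.80) and Cck (0.77), and the Gcg row is mostly blue.

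The genes whose log2 CPM was most like that of each member were sought among 12637 genes with a mean of at least 1 CPM, by Pearson's r over the 16 mice. For Gip they were 2010103J01Rik (r = 0.96), Slc5a11 (r = 0.96) and Slc25a45 (r = 0.96), and for Gcg they were Zfp422 (r = 0.96), Epn3 (r = 0.95) and Slc35a1 (r = 0.95). For Chga they were Gpr39 (r = 0.93), Ddc (r = 0.92) and Mdh2 (r = 0.92). Ddc encodes the decarboxylase that completes serotonin and dopamine synthesis and was at a mean of 79.9 CPM. For Chgb they were Vwa5b2 (r = 0.88), Ppp4r4 (r = 0.87) and St6galnac2 (r = 0.85).

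For Nts the most similar genes were Cdipt (r = 0.91), Igsf3 (r = 0.91) and Foxq1 (r = 0.90), and for Sct they were Tmem115 (r = 0.90), Lrp1 (r = 0.84) and Mgat1 (r = 0.84). For Sst they were Sugp1 (r = 0.88), Lypla2 (r = 0.86) and Fbrsl1 (r = 0.84), and for Cck Ptpmt1 (r = 0.89), Uqcrb (r = 0.88) and Ndufa7 (r = 0.88), all 3 of which encode mitochondrial proteins. Pyy and Tph1 had the weakest likeness, with Pigt (r = 0.75), Rnf40 (r = 0.75) and Casc3 (r = 0.75) for Pyy, and Dact2 (r = 0.78), Bspry (r = 0.78) and Gm31363 (r = 0.77) for Tph1. No other member was among these nearest genes of any member.

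Genes outside the 10 were taken from lists, and Foxa1, Pam, Cacna1a, Tac1, Ffar2, Lpar5 and Gipr are named from them after their values were seen. Of the first list, 18 transcription factor genes of the endocrine lineage, 16 passed the filter. In the pooled comparison 15 of the 16 had a fitted log2 fold change above 0, with a median of 0.25, as against 7307 of all 14822 genes and a median of -0.00366. None passed with adjustment. Nkx2-2, a factor of endocrine differentiation, had a log2 fold change of 0.83 ± 0.27 (edgeR adjusted p = 0.327), and Neurog3, which starts that lineage, 0.78 ± 0.35 (edgeR adjusted p = 0.388). Neurod1, which acts after Neurog3, had 0.16 ± 0.18 (edgeR adjusted p = 0.730), and Rfx3 was lowest with -0.09 ± 0.10. Against Slc2a2, 1 of the 16 passed with adjustment, Foxa1 (r = -0.78), and the median r was -0.04, as against 0.51 for the 10 members and -0.12 for all genes.

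Of 20 genes of hormone processing and secretory granules, 18 passed the filter, and 14 of these had a pooled log2 fold change above 0, with a median of 0.12. In males 17 of 17 tested were above 0, with a median of 0.27, and in females 12 of 17 were below 0, with a median of -0.10. Of all genes tested, 7000 of 14124 were above 0 in males and 7185 of 14064 below 0 in females. Rab3c, a granule-trafficking gene, was highest (0.44 ± 0.29, edgeR adjusted p = 0.564) and Vgf lowest (-0.47 ± 0.39, edgeR adjusted p = 0.648). Pcsk1, the convertase that cuts proglucagon to GLP-1, had 0.17 ± 0.17 in the pooled comparison (edgeR adjusted p = 0.696) with 0.46 ± 0.16 in the males (edgeR adjusted p = 0.925) and -0.13 ± 0.25 in the females (edgeR adjusted p = 0.776). Cpe, which trims the cut ends, had 0.14 ± 0.11, and Scgn, a calcium sensor of endocrine cells, 0.29 ± 0.23. Pcsk2, the convertase that yields glucagon in islets, had at most 3 counts in any library. Against Slc2a2, Ddc (r = 0.86), Pam (r = 0.83) and Slc18a1 (r = 0.65) moved with it and Cacna1a against it (r = -0.61), each with an adjusted p under 0.05.

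Of 12 other gut hormone genes, 4 passed the filter, Ghrl, Iapp, Tac1 and Adm. Ghrl, which encodes ghrelin, had the highest pooled log2 fold change, 0.07 ± 0.16, and Adm the lowest, -0.22 ± 0.43. Tac1 had r = -0.75 with Slc2a2 (permutation p = 0.00142, adjusted over all genes 0.00970). Gast and Galp had 0 counts in every library, and Insl5, a hormone of the large bowel, had at most 14 counts.

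Of 16 nutrient sensor and receptor genes of endocrine cells, 10 passed the filter. Ffar1, a long-chain fatty acid receptor, was lowest with a pooled log2 fold change of -1.02 ± 0.42 (edgeR adjusted p = 0.350), and Ffar4 was highest with 0.20 ± 0.21. Ffar4 (r = -0.89) and Ffar2 (r = -0.76) moved against Slc2a2, and Lpar5 (r = 0.82) with it. Of 20 hormone receptor and clearance genes, 9 passed the filter. Htr4, a serotonin receptor, was highest with 1.28 ± 0.30 (edgeR adjusted p = 0.327), followed by Gipr, the GIP receptor, with 0.98 ± 0.38 (edgeR adjusted p = 0.336). Slc6a4, the serotonin transporter, was lowest with -0.72 ± 0.23 (edgeR adjusted p = 0.327), and moved with Slc2a2 (r = 0.82). Cckbr had 0 counts in every library, and Npy1r, Npy2r, Cckar, Sctr, Sstr2, Ntsr1 and Htr3a had at most 11.

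Beside these comparisons, markers of other cell types varied between the same libraries, but none passed with adjustment in the pooled comparison. The lowest pooled edgeR adjusted p was 0.333 for B cell follicle, 0.327 for mast cell, 0.689 for smooth muscle and 0.627 for adipocyte markers. All 10 B cell follicle markers had a pooled log2 fold change below 0, with a median of -3.01, and the sums lay between 4.77 and 868 CPM in WT and between 2.16 and 130 CPM in Slfn3KO mice. The mast cell marker sum lay between 2.67 and 16.8 CPM in WT and between 3.93 and 31.2 CPM in Slfn3KO mice, with Cma1 at most 2 counts. The smooth muscle sum had a median of 12.1 CPM in WT and 9.76 CPM in Slfn3KO mice and was highest in male WT 4, at 112 CPM. Its 6 markers had a pooled median log2 fold change of 0.61, with -0.84 in males (6 tested) and 1.56 in females (5 tested). The adipocyte sum lay between 24.3 and 109 CPM in WT and between 10.5 and 89.8 CPM in Slfn3KO mice and had r = 0.83 with Slc2a2. Its tested markers did not share this: Cidec had r = 0.82 with Slc2a2, Cfd 0.24 and Fabp4 -0.12. Of 6 adipocyte markers 3 were tested in males, where Cfd (4.62) and Fabp4 (2.16) were higher in Slfn3KO at an unadjusted p under 0.05, and 2 in females, with a median of -0.86. Without the 3 follicle-rich WT libraries the pooled values of Gcg and Chga were 0.62 and -0.64, in place of 0.66 and -0.29. The part of mast cells, smooth muscle and adipocytes in the values of the hormone genes was not tested.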

How the data were processed

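RNA was extracted from ileum mucosa with the Qiagen RNeasy Lipid Kit and prepared with Illumina TruSeq Stranded reagents. The authors sequenced single reads and aligned them to mm10. They deposited raw counts per gene from featureCounts (1.4.6 per the submitters' notes), on the reverse strand per the file header, whereas their methods name HTSeq. Gene symbols came from GENCODE, which named 45143 of 46078 gene IDs and all 169 list genes. The 10 members and the lists were chosen with earlier results of these data known.

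Groups came from the labels. Counts were filtered with filterByExpr, scaled by TMM (factors 0.811 to 1.18) and fitted with edgeR 4.0.16 in R 4.3.3 (quasi-likelihood test, robust), with DESeq2 1.42.0 as an alternative. A call needed an adjusted p under 0.05 over all genes and 1.5-fold. Levels are CPM, and correlations used log2 CPM with a prior count of 2 and two-sided permutation p-values. These came from 100000 permutations with numpy 2.4.6, or from all permutations in the smaller sets of mice, where they are called exact. They were adjusted over all genes where the design had planned the members alone. Scripts were tested on simulated data. Libraries held 20823279 to 30813117 counts, and floors cover counting error only. P-values measure the spread between mice.

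Deviations of same-numbered libraries had positive r in males (0.229, 0.317, 0.518 and 0.138). Some libraries of unlike number did too: Slfn3KO 1 had 0.232 with WT 2, and Slfn3KO 4 had 0.207 with WT 3. Others of unlike number were negative, down to -0.395. The numbers are thus not shown to pair the males, and no label ties them to a litter or day. The block by number is an alternative fit only. Named genes were the members, position and label checks, the extremes of each list with a few fixed genes, and the 3 most similar genes to each member. Promoter sequences are from RefSeq, GRCm38.p6, and all 10 members matched. No deposited column was left out. One marker list holds an item that is not reported here.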

Additional observations from a re-analysis of the deposited data

Results flagged for a closer look

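In 3 of the 40 groups of 4 libraries that were examined, 1 library stood so far from the other 3 that its gap took up more of the group's range than Dixon's critical share of 0.829. About 2 such groups would arise by chance. Pyy in female WT 4, at 44.3 CPM beside 29.7 to 30.0 CPM, had a gap share of 0.971. Sst in male WT 4, at 16.4 CPM beside 11.6 to 11.9 CPM, had a gap share of 0.928. Cck in female Slfn3KO 1, at 5.46 CPM beside 4.29 to 4.47 CPM, had a gap share of 0.834. The sex-linked transcripts of female WT 4 and male WT 4 went against their labels. Their part in these gaps was not tested.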

How the results depend on the processing

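At the adjusted threshold with 1.5-fold, 0 of 10 members and 0 genes in all were called by edgeR in each comparison, and the range over mice left out in turn was 0 to 0. With unadjusted p, 1 member and 984 genes were called in the pooled comparison, 1 and 272 in males, 2 and 1366 in females, and 5 and 946 for the difference between labelled sexes. DESeq2 called 55 genes pooled, 14 in males, 506 in females and 24 for the difference, with 1 member, Sst, in males and in the difference. With Slc2a2 as a covariate, 1 gene was called pooled and 97 in females. Without WT libraries 3 and 4, 2 members and 359 genes were called for the difference. The causes were not tested.

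The 3 members that passed against Slc2a2 became 0 within WT, 0 within Slc2a2 under 5 CPM, 0 over 5 CPM and 0 with Fabp6, and 2 to 5 over mice left out, with 5 without female WT 4. Without WT libraries 3 and 4 they stayed at 3, with Gcg in place of Cck. With Fabp6, listed for the lower small bowel, r was negative for Chga (r = -0.629), Cck (r = -0.559) and Gip (r = -0.320). This is the same direction along the bowel as their positive r with Slc2a2. Under 5 CPM the sign turned for Cck (r = -0.540). The 6 pairs became 3 with epithelium scaling, 3 as deviations from group means, 0 within WT and 0 within Slfn3KO, and 5 to 7 over mice left out. The 5 separated neighbours in the order of levels became 6 without WT libraries 3 and 4, and otherwise stayed at 5 to 5.

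With the replicate block, 0 members and 0 genes passed the adjusted threshold in each comparison, so it changed no call there. At the unadjusted threshold with 1.5-fold it added Gip in males and lost Gip and Gcg in females, while Gcg was called pooled and the same 5 genes for the difference. The share of all genes at that threshold was not counted with the block. Same-numbered females did not deviate together (r = -0.362, 0.143, -0.337 and -0.113). The split at 5 CPM, the ratios and leaving out follicle-rich libraries were chosen after seeing the data. Depth limits Slfn3 and most receptor genes, which were near the floor of 3 counts.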
